A study of Mus musculus with 4 samples.

Results

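The circadian clock genes and their output genes Clock, Per1, Per2, Per3, Cry1, Cry2, Nr1d1, Nr1d2, Dbp and Tef were followed in mouse gastrocnemius muscle, a limb muscle of the calf. They were chosen by name, with every probe set annotated to one of these symbols alone, which gave 18 of the 22690 probe sets on an Affymetrix mouse expression array. All 10 members were on the array, of 12393 genes with such a probe set, and 6 of them had more than 1 probe set. The series holds 4 arrays of total RNA. The NTG arrays (n = 2) are of non-transgenic littermates, and the MCK-PPARa arrays (n = 2) are of mice that overexpress PPARalpha, a nuclear receptor for fatty acids, in muscle. Each genotype has an array numbered replicate 1 and an array numbered replicate 2. The labels do not say what a replicate number marks, and no source used here gives the time of dissection, age, sex or strain. With 2 arrays a group, a p-value reflects the spread among these arrays alone, which may be partly technical, and a permutation of the labels could not give an exact p below 0.333.

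The mammalian clock is a feedback loop of transcription that runs in most cells, muscle fibres included, with a period of about a day. CLOCK pairs with BMAL1, the product of Arntl, and the pair binds E-boxes and switches on the Per, Cry, Nr1d and Dbp genes. PER and CRY proteins then inhibit that pair, and the NR1D receptors, also called REV-ERBs, repress Arntl and Clock through ROR elements. DBP and TEF are output factors that bind D-boxes. Transcripts of many of these genes therefore rise and fall over the day, to differing degrees. Dbp does so steeply and in roughly opposite phase to Arntl. The hour at which a muscle is taken can thus affect their level.

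The signal of Dbp was several-fold lower on both replicate 2 arrays, in NTG and in MCK-PPARa alike, and the brighter Clock probe set was higher on both. Per2, Tef and the brightest Per3 probe set were also lower on both replicate 2 arrays, and Cry2 was higher. Between genotypes, Nr1d2 was lower and Nr1d1 higher in MCK-PPARa, and none of the 9 members tested passed the threshold, an adjusted p of 0.05. The median size of the members' log2 difference was 0.67 between replicate numbers and 0.235 between genotypes, against 0.352 and 0.28 over all genes. The 0.67 was that of Per3 at its brightest probe set, and the other Per3 probe sets differed with the opposite sign. The Clock probe set counted was the brighter only through the replicate 2 arrays. The values are MAS5 signals, a linear brightness per probe set scaled alike on each array. Differences are on the log2(signal + 64.2) scale, which understates changes of dim probe sets, and carry the SE of limma's moderated test over 8402 genes. The levels of different probe sets are not compared with one another.

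**Figure D1:**
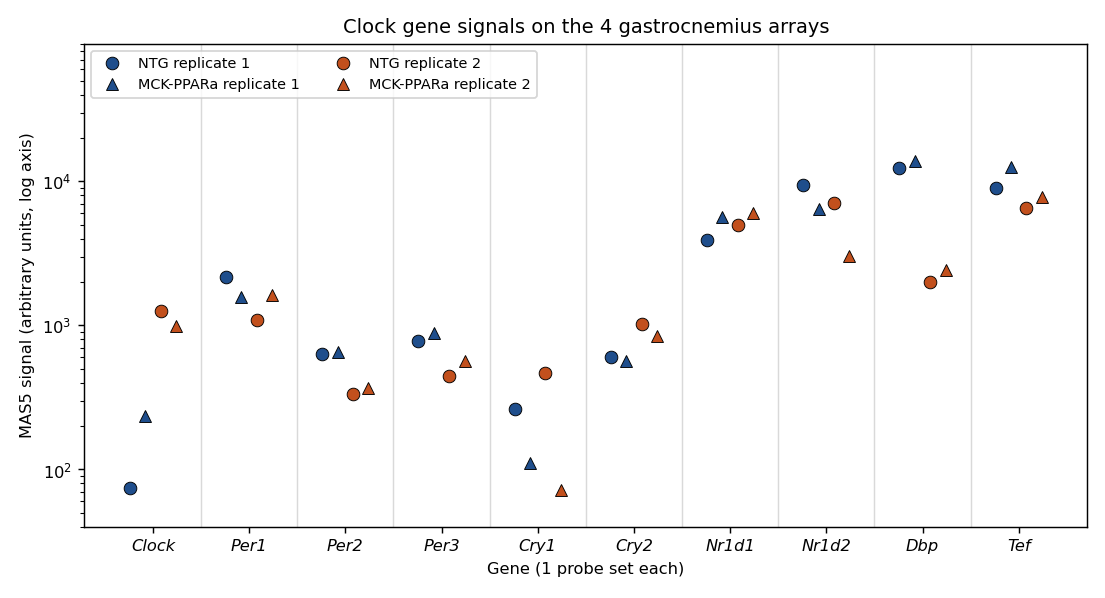
MAS5 signal (log axis) of 1 probe set, the brightest, of each clock member on each of the 4 arrays, with circles for NTG, triangles for MCK-PPARa, blue for replicate 1 and orange for replicate 2. Dbp read 12323 and 13949 on the replicate 1 arrays against 2003 and 2412 on the replicate 2 arrays, while Nr1d1 stayed between 3945 and 6080.

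Dbp, an output gene, encodes a D-box binding factor whose transcript is among the most strongly rhythmic in mouse tissues. Its signal at probe set 1418174_at was 12323 on NTG replicate 1, 2003 on NTG replicate 2, 13949 on MCK-PPARa replicate 1 and 2412 on MCK-PPARa replicate 2. The replicate 2 arrays lay far below the replicate 1 arrays with no overlap, and the genotypes were close within each number. The second Dbp probe set, 1438211_s_at, read 6248, 1531, 6792 and 1549 in the same order and showed the same split. Replicate 2 minus replicate 1 was -2.54 ± 0.25 (SE) on the log2 scale, a 5.82-fold lower level, with a 95% confidence interval of -3.13 to -1.95. The difference was -2.58 within NTG and -2.50 within MCK-PPARa. By limma the adjusted p was 0.08, second smallest p among 8402 genes, and it was 0.0012 with genotype as a block. Dbp fell in that blocked fit and missed the threshold without it. The genotype difference of Dbp was 0.22 ± 0.95, with an interval of -1.99 to 2.43.

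Tef encodes the other D-box factor of the list. Its brightest probe set, 1424175_at, read 9060 and 6500 on the NTG arrays and 12557 and 7762 on the MCK-PPARa arrays, replicate 1 first. Both replicate 2 arrays were below both replicate 1 arrays. The replicate difference was -0.58 ± 0.27 (limma adjusted p = 0.38, and 0.11 with genotype as a block). A further Tef probe set, 1450184_s_at, read 1099 and 168 in NTG against 820 and 311 in MCK-PPARa, a difference of -1.78 ± 0.47 with the same sign. The last, 1438033_at, was dim at 178, 403, 374 and 121 and differed in opposite directions in the genotypes, by 0.95 in NTG and -1.24 in MCK-PPARa.

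Promoter windows, from 250 bases before to 50 after each transcription start, came from RefSeq on GRCm38.p6. Windows were found for 9 of the 10 members, Per2 being the one without. The motifs searched on both strands were the E-box CACGTG, its variant CACGTT, the D-boxes TTATGTAA and TTACGTAA, the ROR element, and AGGTCA repeated after a gap of 1 base. Windows are shown for Dbp and Tef, the output genes just described, for Per3, the one member with D-boxes in its window, and for Arntl, the partner gene of Clock. Capitals mark the motifs found.
Dbp, chr7:45704997-45705296, plus strand: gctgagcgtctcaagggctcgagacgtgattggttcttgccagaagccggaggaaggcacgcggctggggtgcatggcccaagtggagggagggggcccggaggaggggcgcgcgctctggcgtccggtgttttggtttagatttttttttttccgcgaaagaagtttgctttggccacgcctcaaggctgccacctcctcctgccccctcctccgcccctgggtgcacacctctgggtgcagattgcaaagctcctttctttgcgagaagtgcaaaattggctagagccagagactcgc
Tef, chr15:81811164-81811463, plus strand: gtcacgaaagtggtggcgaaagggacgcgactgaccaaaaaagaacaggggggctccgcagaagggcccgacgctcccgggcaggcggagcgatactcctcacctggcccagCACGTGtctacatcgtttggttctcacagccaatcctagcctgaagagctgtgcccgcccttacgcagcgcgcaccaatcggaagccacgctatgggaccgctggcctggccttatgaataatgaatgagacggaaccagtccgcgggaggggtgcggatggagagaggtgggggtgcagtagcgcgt
Per3, chr4:151044616-151044915, minus strand: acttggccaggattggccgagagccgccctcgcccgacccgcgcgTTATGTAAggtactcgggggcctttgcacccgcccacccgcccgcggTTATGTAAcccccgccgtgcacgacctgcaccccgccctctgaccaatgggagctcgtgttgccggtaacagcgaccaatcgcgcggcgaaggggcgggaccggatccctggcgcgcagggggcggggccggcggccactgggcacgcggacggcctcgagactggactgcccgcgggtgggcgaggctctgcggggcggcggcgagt
Arntl, chr7:113207261-113207560, plus strand: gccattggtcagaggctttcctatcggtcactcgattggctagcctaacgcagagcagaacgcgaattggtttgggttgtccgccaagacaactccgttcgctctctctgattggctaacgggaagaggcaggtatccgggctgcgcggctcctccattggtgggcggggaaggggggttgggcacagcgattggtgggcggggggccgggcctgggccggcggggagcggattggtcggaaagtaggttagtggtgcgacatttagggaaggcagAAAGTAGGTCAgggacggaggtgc
The Dbp window held none of the motifs, which says only that these letters are not in this window. The Tef window held an E-box at -138 from the start, and another Tef start had one at -127. Per3 had its D-boxes at -205 and -158. The Arntl window held a ROR element at 26 bases past the start. E-boxes also stood in windows of Per1 at -166 and Cry1 at -60, and the variant in those of Cry1, Cry2 and Nr1d1. No window of Clock or Nr1d2 held a motif. Among all 32851 promoter windows, 7.15% held the E-box, 4.68% the variant, 1.06% a D-box and 0.384% a ROR element.

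**Figure D2:**
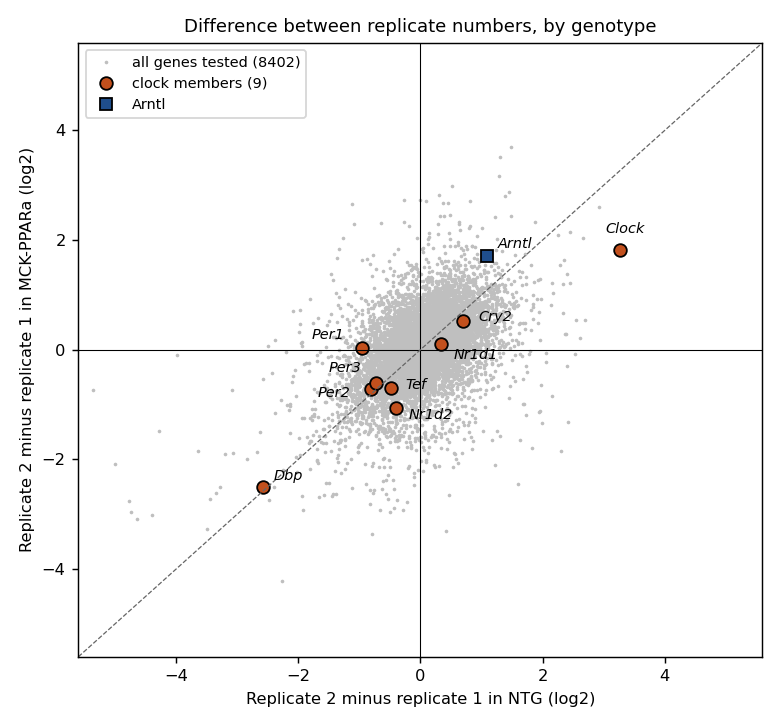
Replicate 2 minus replicate 1 within NTG (horizontal, log2) against the same difference within MCK-PPARa (vertical, log2) for 8402 genes (grey), with the 9 clock members tested in orange, Arntl as a blue square and the line of equal differences dashed. Dbp lies at -2.58 and -2.50, close to that line, and Clock at 3.27 and 1.82.

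Clock encodes the DNA-binding partner of BMAL1. At probe set 1418660_at it read 74.4 on NTG replicate 1, 1268 on NTG replicate 2, 236 on MCK-PPARa replicate 1 and 998 on MCK-PPARa replicate 2. The replicate 2 arrays were high and the replicate 1 arrays low in both genotypes. The replicate difference was 2.54 ± 0.57, a 5.84-fold higher level with an interval of 1.2 to 3.89. That size rests on a signal of 74.4, near the offset of 64.2: it was 3.02 on the log2 scale with an offset of 1% of the median, 1.63 with one of 50%, and 1.43 as the mean of the Clock probe sets. The adjusted p by limma was 0.19, and 0.037 with genotype as a block, where Clock rose. Its other probe set, 1418659_at, was closer together. It read 470 and 691 in NTG against 504 and 555 in MCK-PPARa, a replicate difference of 0.31 ± 0.41. With every probe set tested on its own and genotype as a block, its limma adjusted p was 0.75. Probe set 1418660_at was the brighter only through the replicate 2 arrays. Its choice to stand for Clock, and so the call of Clock, thus drew on the difference tested. The genotype difference of Clock was 0.39 ± 1.08 and took opposite signs within the numbers, 1.11 on the replicate 1 arrays and -0.33 on the replicate 2 arrays.

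The Per genes encode the period proteins of the inhibiting arm. Per2 read 629 and 333 in NTG against 652 and 370 in MCK-PPARa at probe set 1417603_at, replicate 1 first. Both replicate 2 arrays were lower, and the NTG and MCK-PPARa ranges overlapped. The second Per2 probe set, 1417602_at, read 560, 316, 479 and 346 and showed the same replicate split. The replicate difference of Per2 was -0.76 ± 0.43 (limma adjusted p = 0.44). Per1 read 2169 and 1087 in NTG but 1573 and 1617 in MCK-PPARa. Its lower replicate 2 level was thus seen in NTG alone, at -0.96 against 0.04 in MCK-PPARa, and that difference between genotypes was not tested. Genotype differences were 0.05 ± 0.38 for Per1 and 0.09 ± 0.55 for Per2, and both turned negative, at -0.05 and -0.01, when each array was centred on its median.

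Per3 gave different answers at its 3 probe sets. The brightest, 1421087_at, read 785 and 447 in NTG against 890 and 566 in MCK-PPARa, lower on both replicate 2 arrays by -0.67 ± 0.35. Probe set 1421086_at read 235, 358, 225 and 500, higher on both replicate 2 arrays by 0.73 ± 0.47. Probe set 1460662_at read 373, 655, 411 and 537, also higher, by 0.53 ± 0.42. No direction for the Per3 gene is drawn from these probe sets, whose mean differed by -0.07. The genotype difference at the brightest was 0.24 ± 0.46.

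The cryptochromes are the partners of the PER proteins. Cry2 read 600 and 1018 in NTG against 568 and 843 in MCK-PPARa, and both replicate 2 arrays were above both replicate 1 arrays. The replicate difference was 0.61 ± 0.31 (limma adjusted p = 0.41), and the genotype difference was -0.16 ± 0.43. Cry1 lay at the 23.8th percentile of mean signal and did not pass the filter on dim probe sets, set at percentile 40. It read 263 and 469 in NTG against 111 and 71.7 in MCK-PPARa, so that both MCK-PPARa arrays were lower. In a fit without the filter that difference was -1.44 ± 0.53, with a limma adjusted p of 0.72. Cry1 had no common direction between replicate numbers, at 0.71 in NTG and -0.36 in MCK-PPARa.

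Nr1d1 and Nr1d2 encode the REV-ERB repressors of the stabilising loop. Nr1d1 read 3945 and 5000 in NTG against 5682 and 6080 in MCK-PPARa. Both MCK-PPARa arrays were above both NTG arrays, by 0.40 ± 0.30 with an interval of -0.29 to 1.08 (limma adjusted p = 0.96). Nr1d2 read 9433 and 7103 in NTG against 6385 and 3012 in MCK-PPARa at probe set 1416958_at, lower on both MCK-PPARa arrays and lowest on replicate 2. The genotype difference was -0.89 ± 0.40, with an interval of -1.83 to 0.05 and a limma adjusted p of 0.89. With replicate number as a block the interval was -1.39 to -0.385 and the limma adjusted p 0.086, short of the threshold. The difference was -0.56 on the replicate 1 arrays and -1.22 on the replicate 2 arrays. Leaving out the second MCK-PPARa array gave -0.36, and leaving out the first gave -1.42. The dimmer Nr1d2 probe set, 1416959_at, read 1464 and 1485 in NTG against 1399 and 643 in MCK-PPARa, and there the low value was that of the MCK-PPARa replicate 2 array alone. Between replicate numbers Nr1d1 differed by 0.22 ± 0.28 and Nr1d2 by -0.74 ± 0.43, or by -0.13 without MCK-PPARa replicate 2 and -1.35 without NTG replicate 2.

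**Figure D3:**
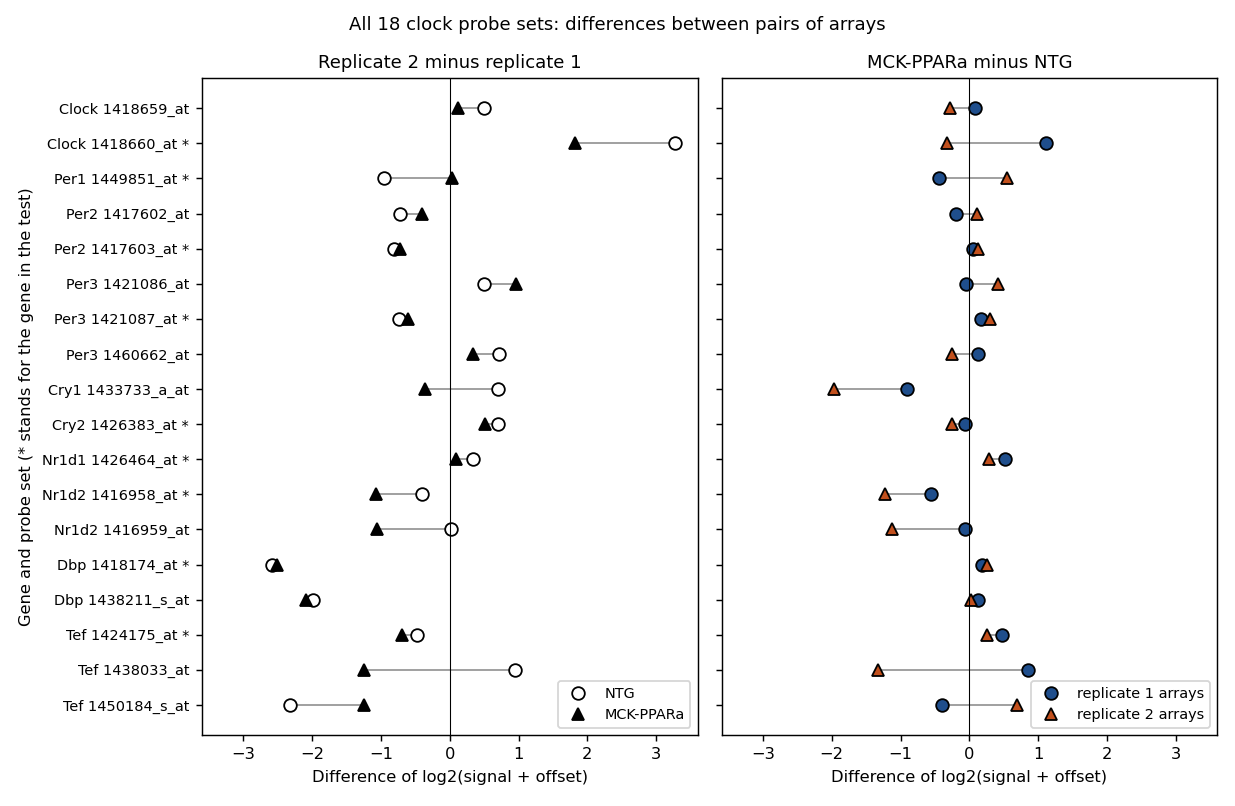
All 18 clock probe sets, with the log2 difference of replicate 2 minus replicate 1 within each genotype (left) and of MCK-PPARa minus NTG within each replicate number (right), 1 array on each side of every difference. Both Dbp probe sets lie between -2.58 and -1.98 on the left and between 0.02 and 0.26 on the right, and the Per3 probe sets lie on both sides of 0 on the left.

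Counted at the brightest probe set of each member tested, the replicate difference was below 0 for 6 of 9 and above 0 for 3. Its median was -0.58 against 0.07 over all genes. The 6 included Per1, lower in NTG alone, and Per3, whose other probe sets differed the other way. The numbers did not overlap for 4 members lower (Per2, Per3 at its brightest probe set alone, Dbp and Tef), where the share of all genes was 21.3%, and for 2 members higher (Clock and Cry2), where it was 26.8%. No member and no gene passed the limma threshold in this fit, a share of 0%. An unadjusted p under 0.05 was reached by 1220 genes, 14.5% of all tested, and by 2 of the 9 members, Clock and Dbp. With genotype as a block, 387 genes passed, 4.61% of all tested, and Dbp and Clock, at its brighter probe set alone, were among them. Between genotypes 7 members were above 0 and 2 below, with a median of 0.22 against 0.05 over all genes. 0 members passed among 5 genes called, 0.0595% of all tested. An unadjusted p under 0.05 was reached by 490 genes, 5.83% of all tested, and by 0 members. With replicate number as a block it was reached by 1259 genes, 15% of all tested, and by 1 member, Nr1d2. Cry1, which the filter removed, had an unadjusted limma p of 0.025 in the fit without filter or block. The genotypes did not overlap for 1 member higher, Nr1d1, where the share of all genes was 20.4%, and for 1 lower, Nr1d2, where it was 13.8%. At these shares, non-overlap of a single member is common among all genes.

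**Figure D4:**
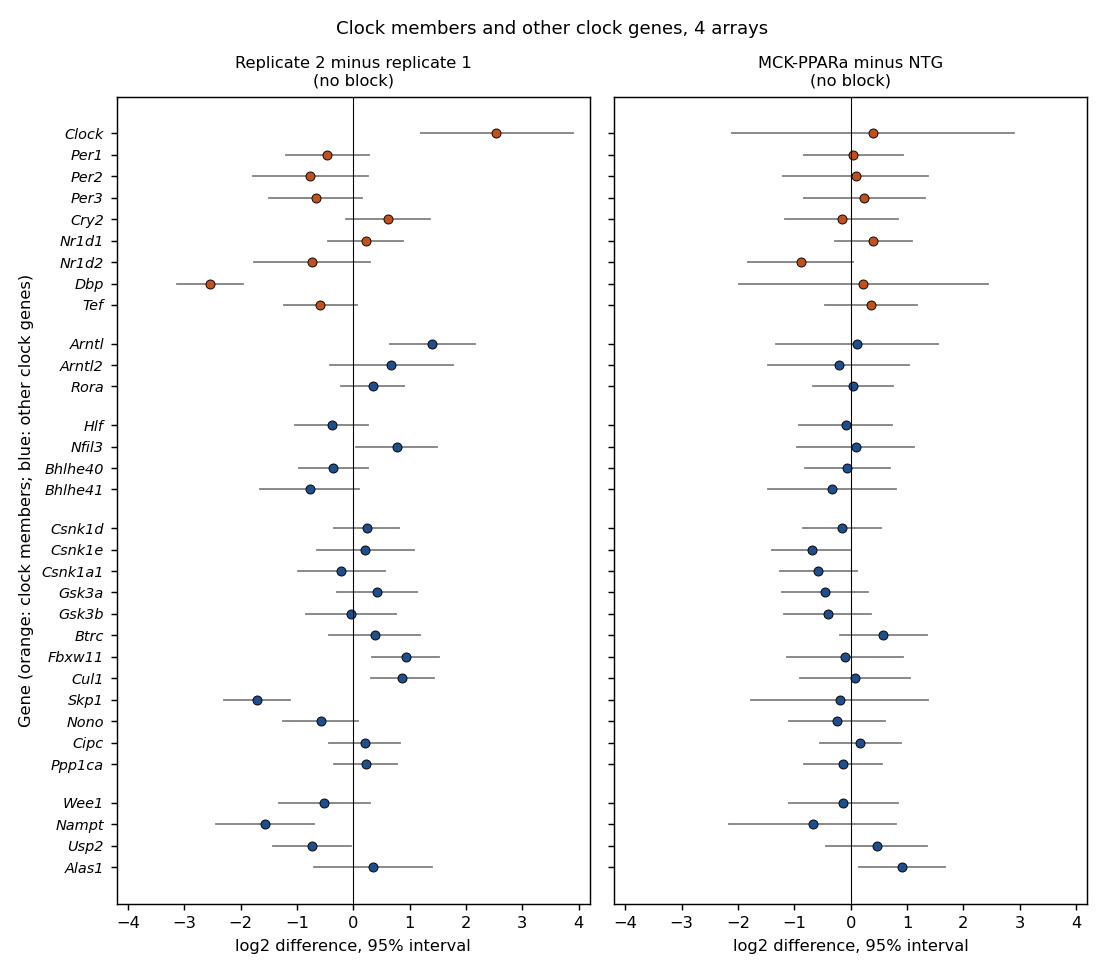
Log2 difference (horizontal) of each clock member tested (orange) and of 23 other clock genes (blue) with its 95% confidence interval from limma without a block, for replicate 2 minus replicate 1 (left) and MCK-PPARa minus NTG (right). The intervals of Dbp, -3.13 to -1.95, and Clock, 1.2 to 3.89, exclude 0 on the left, and no member's interval excludes 0 on the right.

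Of 31 other clock genes listed, 26 were on the array and 23 were tested. None passed between replicate numbers without a block, and 7 had an unadjusted p under 0.05, where the share of all genes was 14.5%. With genotype as a block, where 4.61% of all genes passed, 2 rose, Arntl and Fbxw11, and 2 fell, Skp1 and Nampt. Arntl, which encodes BMAL1, read 526 and 1187 in NTG against 449 and 1624 in MCK-PPARa, higher on both replicate 2 arrays. Its difference was 1.40 ± 0.31, a 2.64-fold higher level (limma adjusted p = 0.19, and 0.043 with the genotype block). Arntl was thus high on the arrays where Dbp was low. Nampt, the NAD-synthesis enzyme gene switched on by CLOCK and BMAL1, read 6556 and 2574 in NTG against 4834 and 1336 in MCK-PPARa. Its difference was -1.57 ± 0.36, the same sign as Dbp, though its dimmer probe set read higher on NTG replicate 2 at 972 against 729. Usp2, a deubiquitinase gene under clock control, read 14781 and 8406 in NTG against 19373 and 12200 in MCK-PPARa, lower on replicate 2 by -0.74 ± 0.29 (limma adjusted p = 0.32).

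Among the D-box and E-box factors, Nfil3, a repressor at D-boxes, read 670 and 991 in NTG against 592 and 1268 in MCK-PPARa, higher on replicate 2 by 0.77 ± 0.30. Hlf, another factor of the DBP and TEF family, differed by -0.39 ± 0.27, and the repressor genes Bhlhe40 and Bhlhe41 by -0.35 ± 0.26 and -0.77 ± 0.37. Of the genes for PER and CRY turnover, the ubiquitin ligase subunit Skp1 differed by -1.71 ± 0.25 (limma adjusted p = 0.14), and Fbxw11 and Cul1 by 0.93 ± 0.25 and 0.87 ± 0.24. The Fbxw11 probe sets disagreed: 1437468_x_at differed by -0.19 ± 0.29, and their mean by 0.39 with a limma adjusted p of 0.54. Between genotypes 0 of these 23 genes passed, against 0.0595% of all genes, and 8 were above 0 and 15 below, with a median of -0.13. The smallest unadjusted p values there were those of Alas1, for heme synthesis, at 0.91 ± 0.33, and of the casein kinase gene Csnk1e at -0.70 ± 0.30, with limma adjusted p of 0.70 and 0.85. Their dimmer probe sets differed less, Alas1 by 0.09 and Csnk1e by -0.13. The means of their probe sets differed by 0.499 and -0.411.

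Ppara, the overexpressed gene, averaged 10.43 on the log2 scale in NTG and 13.44 in MCK-PPARa. The difference was 3.0 ± 0.62, and 3.53 and 2.48 within the numbers. Its limma adjusted p was 0.21, and 0.00085 with replicate number as a block, where Ppara passed the threshold. With any 1 array left out the difference was 2.02 to 3.99. The trimmed mean signal was 1500.6 to 1500.7 on every array and the median 581.5 to 700.3. Affymetrix's 18S ribosomal RNA controls moved with the replicate number. The 5′ set read 2202 and 2313 on the replicate 1 arrays and 28.9 and 44.7 on the replicate 2 arrays. The 3′ set split less, at 1414 and 1978 against 527 and 511, while the 3′ to 5′ ratio of Gapdh stayed between 0.718 and 0.965. Their part in the replicate difference of the clock genes was not tested, and RNA handling, hour of dissection and any other property of a replicate number cannot be told apart here. The 8 skeletal muscle markers all read at least 50555.5, summing to 1095544 and 1229552 on the replicate 1 arrays and 1033495 and 1059677 on the replicate 2 arrays. The 5 smooth muscle and pericyte markers also split by number in sum, at 23105 and 21880 against 28678 and 28271. Rgs5 read 5643 and 7711 on the replicate 1 arrays against 13328 and 13034 on the replicate 2 arrays. Tagln and the dim Cnn1 were also higher on both replicate 2 arrays, while Acta2 and Myh11 overlapped between numbers. The sums of the other 6 marker lists overlapped between numbers. The 5 adipocyte markers on the array, of 7 listed, summed to 7615 to 7935 in NTG and 17917 to 28942 in MCK-PPARa, with no marker at 0. Fabp4 made up the largest part of that sum. Fabp4, Adipoq and Retn were higher on both MCK-PPARa arrays, and Lipe and Lep overlapped between genotypes. Endothelial sums were 10044 and 12351 in NTG against 14531 and 15321 in MCK-PPARa. Fibroblast, macrophage and red blood cell sums were also higher on both MCK-PPARa arrays. Single markers did not all go that way. Of the fibroblast markers, Col1a2 alone was higher on both MCK-PPARa arrays. Pdgfra was lower on both, at 1146 and 2011 in NTG against 803 and 762. Of the red blood cell markers, Alas2 was higher on both, and Hba-a1 and Slc4a1 overlapped. The macrophage markers Cd68 and Cd14 overlapped, as did the endothelial markers Tek, Emcn and Tie1. The remaining lists overlapped between genotypes. The part of these markers in the genotype differences was not tested, and in whole muscle the number of cells of a type and the RNA per cell cannot be told apart.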

How the data were processed

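Total RNA of gastrocnemius from NTG and MCK-PPARa mice was hybridised by the authors to 2 arrays of each genotype. The sample titles do not say whether each array held the RNA of a separate mouse. The deposited values are linear signal intensities per probe set, made with MAS5 per the submitters' processing notes; they have no detection calls in the table used here, and only 4 arrays limit the precision. Of 22690 probe sets, 20380 had 1 gene symbol, 691 several and 1555 none, and 64 were controls. The values were taken as log2(signal + 64.2), the offset being 10% of the median signal. After a filter at the 40th percentile of mean signal, each gene was represented by its brightest probe set, for 8402 genes in all. limma 3.58.1 in R 4.3.3 (lmFit, eBayes with a variance trend, two-sided, Benjamini-Hochberg over all genes, threshold 0.05) gave MCK-PPARa minus NTG and replicate 2 minus replicate 1, with the scripts checked on simulated data. Alternatives were the offset, filter, scaling, variance trend, probe set rule, blocks and leaving out each array. Every member was named, and up to 4 genes of each other clock list by smallest p. The members and lists were chosen with earlier results of these data known.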

Additional observations from a re-analysis of the deposited data

How the results depend on the processing

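Dbp kept its sign between replicate numbers in 14 of 14 alternatives, at -2.68 to -2.29, with limma adjusted p from 0.0012 to 0.80; the highest came without NTG replicate 1. Without a filter on dim probe sets 2 genes and 1 member, Dbp (adjusted p = 0.0496), passed between replicate numbers. With genotype as a block 387 genes and 2 members, Dbp and Clock at its brighter probe set, passed. Of 135 member values in that comparison, 128 kept sign and side of the threshold, 3 came to pass it and 4 changed sign. Those were Cry1 at -0.0475 after quantile normalization and, leaving out arrays, Cry1 at -0.82 to 1.16 and Nr1d1 at -0.0428 to 0.476; Rora, no member, came to -0.0011 as the mean of its probe sets.

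Between genotypes the genes called numbered 5, against 2 after quantile normalization, 1 after median centring, 3 without a variance trend, 16 with the mean of probe sets and 72 to 150 leaving out an array, where the lone array is assumed to vary like the others; no member passed in any of them. With replicate number as a block 211 of 8402 genes and 0 of 9 members passed, and Ppara did (limma adjusted p = 0.00085). At that share of all genes, 0 of 9 is no result about the members. Same-numbered arrays deviated together (r = 0.47 over 8402 genes), but with 2 pairs they share only a number. Of 135 member values 14 changed sign: Per2 to -0.0172 (quantile) and -0.014 (centring), Per1 to -0.0529 (centring) and, leaving out arrays, Clock (-1.24 to 2.03), Per1 (-0.43 to 0.53), Per2 (-0.31 to 0.49), Per3 (-0.13 to 0.60), Cry2 (-0.52 to 0.19) and Dbp (-1.07 to 1.51). The causes were not tested. Median centring moved the median of all genes from 0.07 to -0.08 between replicate numbers and from 0.05 to -0.05 between genotypes.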
